A study of Homo sapiens with 6 samples.

Results

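Peaks of the nuclear speckle protein SON and of the DNA-binding protein HMGB2 were read at 10 genes of the translation machinery: EEF1A1, EEF1B2, EEF1D, EEF1G, EEF2, EIF4A1, EIF4A2, EIF3E, NPM1 and TPT1. The 10 genes were chosen by name, out of 19974 protein-coding genes on chromosomes 1 to 22 and X, with earlier results of these data known. Their shares and intervals beside those of all genes are therefore descriptions only. A peak was assigned to a gene when it touched the gene's span in the RefSeq table of GRCh38.p14 or the 5 kb on either side. Of the 10, 8 encode translation factors. NPM1 encodes nucleophosmin, a nucleolar chaperone of ribosome assembly, and TPT1 encodes the translationally controlled tumour protein, so the set is wider than elongation and initiation proper.

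The data are peak lists from ChIPmentation, in which chromatin held by an antibody is cut and tagged with adapters by a transposase. All lists came from IMR90, a line of human embryonic lung fibroblasts. The SON lists, from formaldehyde-fixed cells, cover the untreated state and days 3 and 6 of a treatment that the labels name ICM without expanding it. HMGB2 was profiled in untreated cells fixed with EGS and then formaldehyde, so target and fixation cannot be told apart, and 2 further HMGB2 samples of the series, an input and one named for DSG, were not analysed here.

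Each group holds 1 list, so no difference between conditions has a replicate check and none was tested. On the chromosomes compared, the untreated SON list held 22216 peaks, the 3-day list 11028, the 6-day list 5481 and the HMGB2 list 5992. Read depth is unknown. The strength of a peak is the authors' own −log10 p, and it is given with its rank or percentile inside its list, where rank 1 and percentile 100 are the strongest. Since the lists differ in length, a rank or percentile that differs between lists does not show a change in binding. Each SON line joins 2 replicates, and its −log10 p is the lower of the 2 values. SON lines also carry a global IDR (irreproducible discovery rate), which is low for a peak that ranks high in both replicates. The labelled cell type could not be checked firmly, since peaks at genes are not expression. An untreated SON peak was present at 9 of 11 fibroblast genes, 2 of 6 epithelial, 2 of 4 endothelial and 2 of 4 immune genes, against 57.1% of all genes. At 3 days the counts were 5, 0, 1 and 2. The untreated medians of the strongest peak were at percentile 64.0 for fibroblast genes, 0.997 for epithelial, 61.7 for endothelial and 87.5 for immune genes.

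In elongation, eEF1A brings each aminoacyl-tRNA to the ribosome, the eEF1B complex recharges eEF1A with GTP, and eEF2 moves the ribosome along the mRNA. In initiation, the eIF4A helicases unwind the mRNA leader and eIF3 holds the small subunit. Many of these mRNAs begin with a 5′ terminal oligopyrimidine (TOP) tract, a C followed by a run of pyrimidines, through which growth signalling controls their translation.

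The promoter sequences are shown because a SON peak met this stretch in 7 of the 8 members with a sequence. The RefSeq promoter table (GRCh38.p14) matched 8 of the 10 members. The stretches below run 5′ to 3′ on the strand of the gene, from 80 bases before the transcript start through the first 20 bases from it. Capitals mark the letters TATA where they lie 40 to 21 bases upstream, and the pyrimidine tract at the start.
EEF1A1, chr6:73521013-73521112, minus strand: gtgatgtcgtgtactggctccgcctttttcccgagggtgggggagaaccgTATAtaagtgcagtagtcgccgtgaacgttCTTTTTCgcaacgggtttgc
EEF1B2, the downstream of its 2 starts, chr2:206159815-206159914, plus strand: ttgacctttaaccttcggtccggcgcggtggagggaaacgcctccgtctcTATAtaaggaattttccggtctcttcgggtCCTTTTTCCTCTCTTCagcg
EEF1G, chr11:62573872-62573971, minus strand: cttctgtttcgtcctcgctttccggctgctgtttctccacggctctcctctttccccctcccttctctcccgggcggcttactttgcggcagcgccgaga
EEF2, chr19:3985444-3985543, minus strand: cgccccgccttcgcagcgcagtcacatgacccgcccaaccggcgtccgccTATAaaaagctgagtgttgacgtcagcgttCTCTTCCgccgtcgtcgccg
EIF4A1, chr17:7572745-7572844, plus strand: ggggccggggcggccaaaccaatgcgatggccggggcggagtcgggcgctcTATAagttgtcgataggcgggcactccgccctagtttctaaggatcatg
EIF4A2, chr3:186783497-186783596, plus strand: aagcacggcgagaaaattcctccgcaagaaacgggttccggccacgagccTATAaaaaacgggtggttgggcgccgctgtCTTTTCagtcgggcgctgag
NPM1, the downstream of its 2 starts, chr5:171387769-171387868, plus strand: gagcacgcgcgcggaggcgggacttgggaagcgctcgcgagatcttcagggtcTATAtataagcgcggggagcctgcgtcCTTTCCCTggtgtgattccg
TPT1, chr13:45341164-45341263, minus strand: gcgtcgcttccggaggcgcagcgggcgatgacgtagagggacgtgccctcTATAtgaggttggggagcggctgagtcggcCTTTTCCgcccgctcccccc

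A C followed by at least 4 pyrimidines, beginning within 5 bases of a RefSeq start, was found in 6 of the 8 members (EEF1A1, EEF1B2, EEF2, EIF4A2, NPM1 and TPT1), against 28% of 15812 protein-coding genes with a promoter entry. In all 6 the tract began exactly at the start. The letters TATA at 40 to 21 bases upstream, a window set after the sequences were read, were found in 7 of the 8, EEF1G being the exception, against 9.23% of genes. In 6 of these 7 they began 29 or 30 bases upstream, and in NPM1 27 bases upstream.

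The other motifs were searched on both strands from 250 bases before to 50 bases after each start. GGGCGG was found in 6 members and in 64.2% of genes, CCAAT in 4 and 42.1%, CCGGAA in 4 and 26.6%, TATAAA in 2 and 12.4%, and TGACGTCA in 1, EEF2, and 3% of genes. TATAAA overlaps the TATA search. CACGTG (10.9% of genes) and a strict form of the CTCF core motif (0.0885% of genes) were in none of the 8 windows. A match is a description of the letters, not a binding site.

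SON peaks were present at 9 of the 10 genes in untreated cells (90%, 95% exact Clopper-Pearson interval 55.5 to 99.7%), at the same count of 9 at 3 days, and at 6 at 6 days (60%, 26.2 to 87.8%). HMGB2 peaks were present at 6 (60%, 26.2 to 87.8%). Over all protein-coding genes the shares were 57.1% in untreated SON, 41% at 3 days, 21.5% at 6 days and 23.3% for HMGB2. Intervals cover counting error over genes only. EEF1A1, EEF1B2, EEF1G and EIF4A1 had a peak in all 4 lists, as did 10.6% of all genes. EEF1D and NPM1 also had one in each SON list, which makes 6 members against 20.3% of all genes, and had none in the HMGB2 list. EEF2 and TPT1 lacked a 6-day peak, EIF3E lacked a 6-day and an HMGB2 peak, and EIF4A2 had none anywhere, as did 40.3% of all genes.

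**Figure D1:**
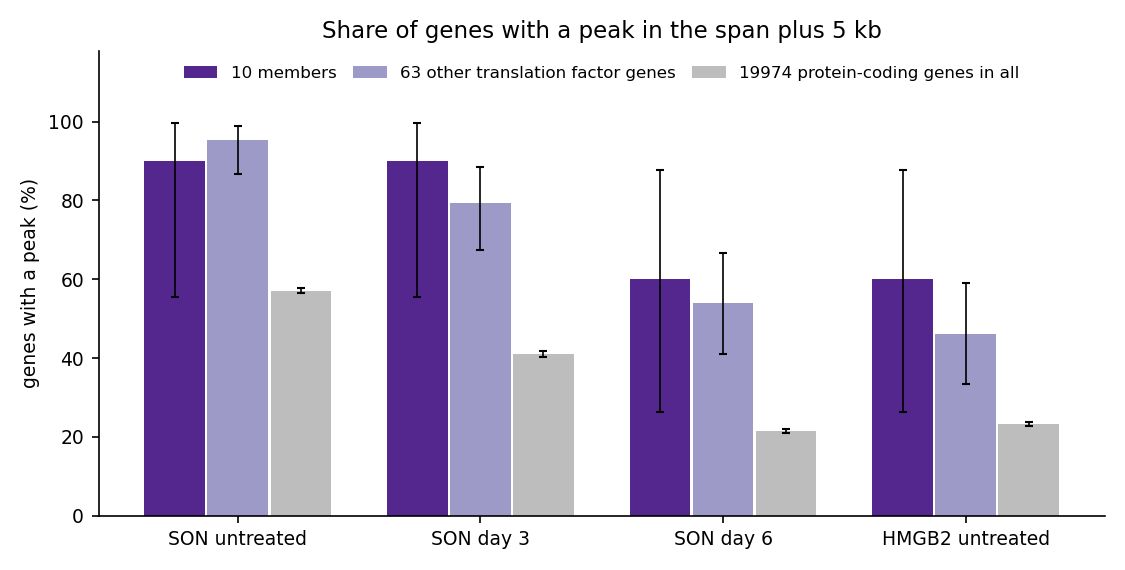
Share of genes (%) with at least 1 peak in the span plus 5 kb, for the 10 members, 63 other translation factor genes and all 19974 protein-coding genes in each of the 4 lists, with 95% exact binomial intervals. The members stand at 90%, 90%, 60% and 60%, and all genes at 57.1%, 41%, 21.5% and 23.3%.

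The members are short genes, with a median span of 8560.5 bp against 24170.5 bp for all protein-coding genes, and a short span leaves less room for a peak. Among the 11307 genes whose length falls between the shortest and the longest member, the shares were 55.2%, 39.9%, 19.6% and 23.3% in the same order of lists. With every list held to its 5481 strongest peaks, the members with a peak numbered 7 in untreated SON, 9 at 3 days, 6 at 6 days and 6 for HMGB2, against 26.2%, 27.2%, 21.5% and 21.7% of all genes.

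Among members with a peak, the strongest peak had a median percentile of 96.0 in untreated SON, 96.0 at 3 days, 95.04 at 6 days and 65.8 for HMGB2. Over all protein-coding genes with a peak these medians were 72.1, 66.7, 60.2 and 59.9. The range among members was wide, from 5.86 to 99.9 in untreated cells, from 70.6 to 99.1 at 3 days and from 2.77 to 98.0 at 6 days. The low ends in untreated cells and at 6 days belong to EEF1A1 and EEF1D, described next.

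**Figure D2:**
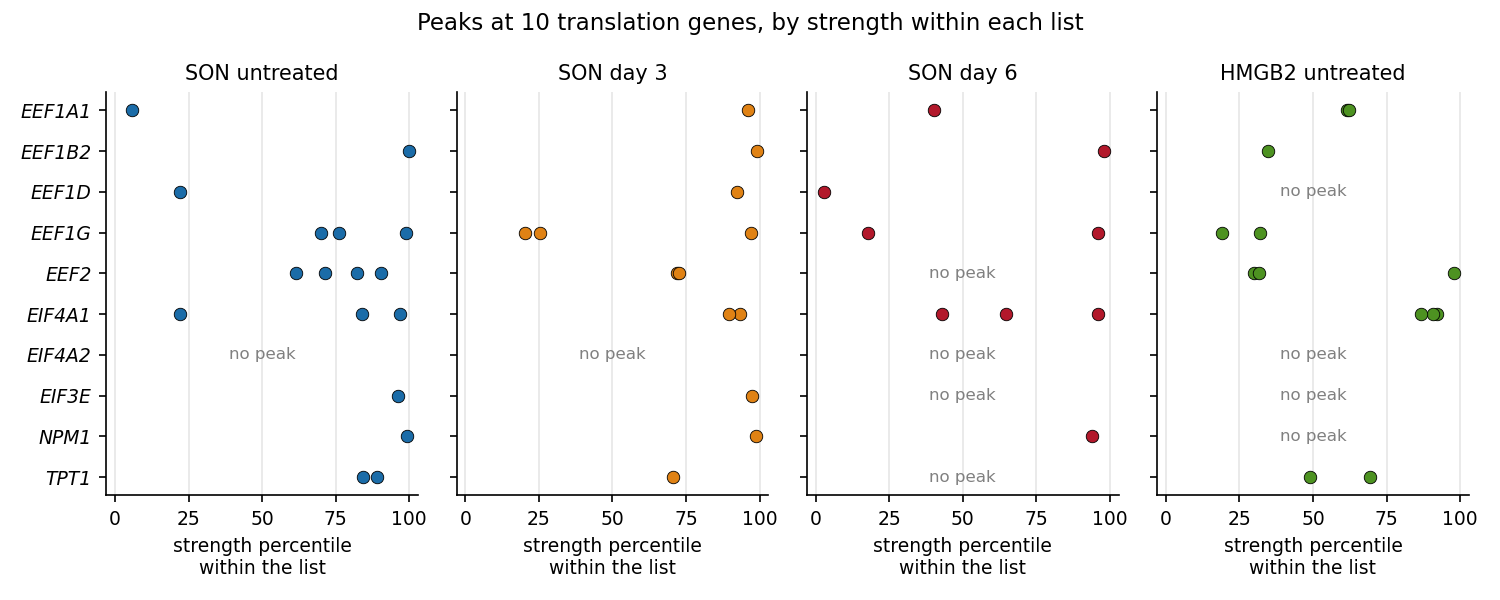
Every peak at the 10 members, placed by its strength percentile within its own list (x axis, 0 to 100), with 1 panel per list and members without a peak marked. EEF1B2, EEF1G and NPM1 hold a SON peak at percentile 94.0 or above in each SON panel, and EIF4A2 has no peak in any panel.

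EEF1A1 encodes the main form of eEF1A. In untreated cells the SON peak over its start was weak, at 5.54 on the −log10 p scale and rank 20916 of 22216. Its global IDR of 0.431 was the highest that list holds, a value shared by 32.7% of the list's peaks. At 3 days the peak stood at 39.9, rank 447 of 11028, with an IDR of 0.000215, and at 6 days at 7.91, rank 3271 of 5481, with an IDR of 0.298. The gene thus lay near the bottom of the untreated list and near the top of the 3-day list. The 2 replicates had the same value of 5.54 in untreated cells, 39.9 and 76.5 at 3 days, and 7.91 and 10.8 at 6 days.

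The summits at EEF1A1 fell within a few bases of each other, 182, 177 and 179 bases upstream of the start in the 3 SON lists and 177 bases upstream in the HMGB2 list. HMGB2 stood there at 10.8 on the same scale, with a fold enrichment of 3.31. A second HMGB2 peak, with 10.7 and a fold of 6.39, lay 3593 bp past the other end of the gene, where no SON list had a peak.

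The 3 subunits of the eEF1B exchange complex gave unlike values. EEF1B2, the catalytic subunit, carried the strongest SON peaks of the set, with a −log10 p of 256.5 in untreated cells (rank 21), 91.6 at 3 days (rank 99) and 28.1 at 6 days (rank 109). Their global IDRs were 0.000169, 7.55e-05 and 0.000565. It was therefore among the leading peaks of each SON list. The peak on chromosome 2 from 206159310 to 206159962 covers both RefSeq starts of EEF1B2. It also covers the upper-coordinate end, at 206159444, of the span of NDUFS1, a subunit gene of respiratory complex I. The SON signal cannot be given to either gene alone. HMGB2 had a weaker peak at the same place, with a −log10 p of 8.42, rank 3921 of 5992 and a fold of 3.64, and its summit lay 7 bases from that of untreated SON.

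EEF1D, a second exchange subunit, had 1 SON peak at the upper-coordinate end of its span on chromosome 8. This end lies next to TIGD5, a transposon-derived gene whose span begins at 143597831. The −log10 p of the EEF1D peak was 7.02 in untreated cells (rank 17312, IDR 0.431), 25.7 at 3 days (rank 864, IDR 0.000441) and 5.35 at 6 days (rank 5330, IDR 0.63). As at EEF1A1, the 3-day peak ranked far higher in its list than the peaks of the other SON lists did in theirs, while the 6-day value was below the untreated one here and above it at EEF1A1. Replicate values at 6 days were 10.1 and 5.35. The untreated and 3-day peaks also reach into TIGD5. The nearest HMGB2 peak to the gene was 345 kb away.

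EEF1G, the structural subunit, had its strongest SON peak over the start, with 63.7 in untreated cells (rank 272), 46.7 at 3 days (rank 332) and 20.9 at 6 days (rank 217), and IDRs of 0.00075, 7.11e-05 and 0.00179. An HMGB2 peak lay inside it, with 8.13 and a fold of 3.17. A second SON site inside the gene, on chromosome 11 from 62560601 to 62561074, had 16.0, 7.17 and 6.63 in the 3 SON lists and no HMGB2 peak. The last site, 3011 bp past the end of the gene, had SON values of 14.01 in untreated cells and 6.86 at 3 days, no 6-day peak, and an HMGB2 value of 7.08. EEF1G thus held SON peaks at its start in each SON list, and its minor sites were weaker in every list that had them.

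EEF2, the translocase, had a SON peak over its start of 19.0045 in untreated cells (rank 3921, IDR 0.00532) and 12.5 at 3 days (rank 3008, IDR 0.0172), and none at 6 days. The nearest 6-day SON peak, with 9.66 and rank 1921, lay 6.7 kb from the gene, just past the 5 kb searched. No HMGB2 peak met the start. Another site lay 4595 bp past the other end of the gene, on chromosome 19 from 3971069 to 3971461, where the SON peaks touch DAPK3, a kinase gene. There SON had 25.6 in untreated cells, above the peak at the start, and 12.4 at 3 days. HMGB2 had 30.6, rank 124 of 5992, with a fold of 11.8, in a peak that does not reach DAPK3. The HMGB2 percentile of 97.9, the highest of any member, comes from this site outside EEF2. Upstream of the start, SON peaks of 11.9 and 14.4 were listed in untreated cells only, and HMGB2 met the farther one with 8.08. A further HMGB2 peak inside the gene, with 7.88, met no SON peak.

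**Figure D3:**
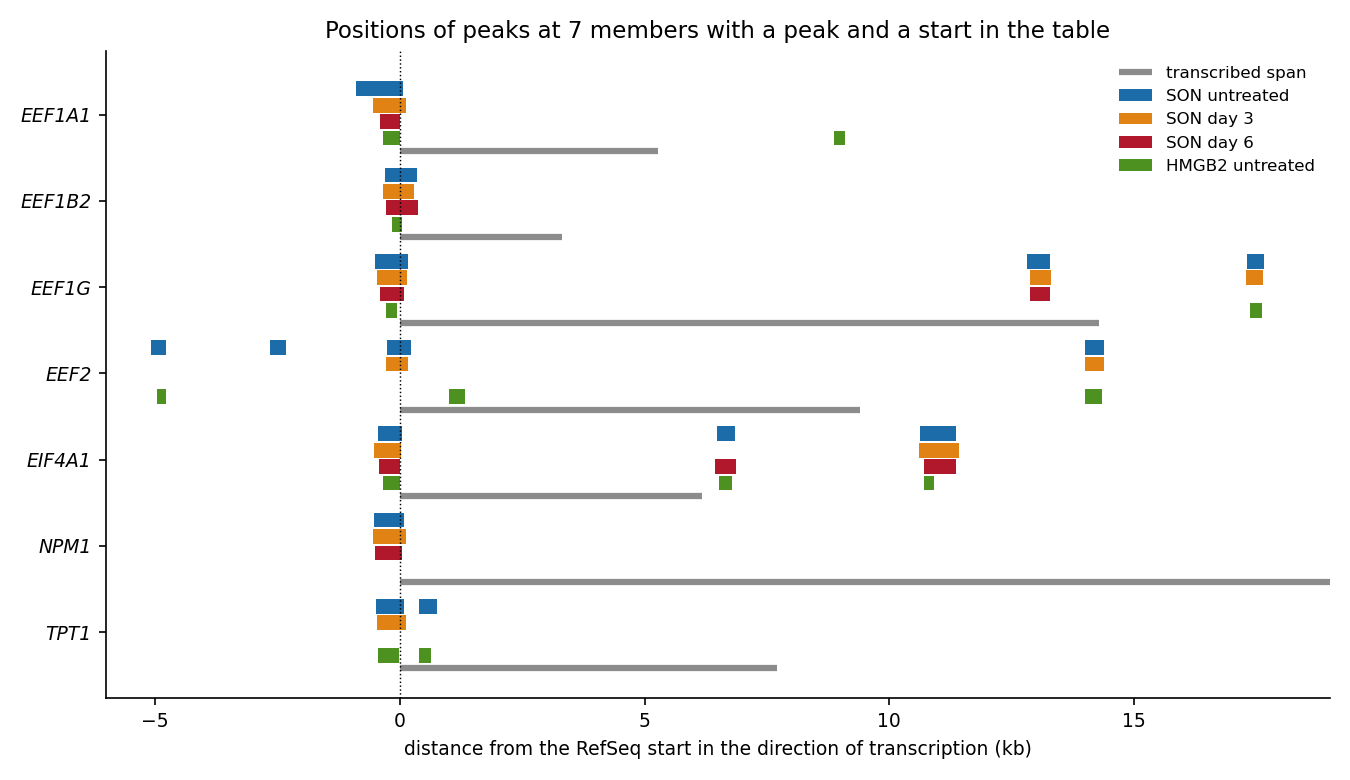
Peaks of the 4 lists along 7 members, by distance from the RefSeq start in the direction of transcription (kb), with 1 colour per list and a grey bar for the span downstream of the start used (the NPM1 bar continues past the axis). Each member has an untreated and a 3-day SON peak at 0 kb, while sites away from the start are at EEF1A1, EEF1G, EEF2, EIF4A1 and TPT1.

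The 2 helicase paralogues of eIF4A stood apart. EIF4A1 had a SON peak over its promoter window in each list, with 42.4 in untreated cells (rank 695), 28.0 at 3 days (rank 751) and 20.9 at 6 days (rank 216), and IDRs of 0.00137, 0.00398 and 0.0023. The 6-day peak ended 6 bp before the start, as did the HMGB2 peak. HMGB2 had 18.4 there, rank 472 and a fold of 4.99. It was the strongest of the 5 HMGB2 peaks over a member's promoter window. The window of this gene also holds 2 sites at its neighbours. At the first, SON peaks of 7.03 in untreated cells and 9.62 at 6 days touch CD68, a macrophage gene, and there was none at 3 days. The HMGB2 peak there, with 17.6, does not reach CD68. The other touches MPDU1, with SON values of 19.9, 21.7 and 8.05 and an HMGB2 value of 15.6.

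EIF4A2 had no peak in any of the 4 lists. Its promoter carries TATA letters and a pyrimidine tract, as do those of EEF1A1, EEF1B2, EEF2, NPM1 and TPT1. Of the 317 protein-coding genes with both at 1 start, 29.3% had an untreated SON peak over the promoter window. The SON peak closest to EIF4A2 lay 32.2 kb off in the untreated list, 37.4 kb off in the 3-day list and 213 kb off in the 6-day list. The closest HMGB2 peak lay 845 kb off. The untreated SON peak was weak, with a −log10 p of 7.46 and rank 16105. The span of the next gene, RFC4, begins 3 bases after that of EIF4A2 and lies partly within the searched window. EIF4A2 hosts 5 snoRNA genes in its span, EIF4A1 hosts 3, EEF1B2 and TPT1 host 2 each and EEF2 hosts 1. No peak of any list met one of these snoRNA genes.

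EIF3E, a subunit of eIF3, had 1 SON peak at the upper end of its span on chromosome 8, with 38.2 in untreated cells (rank 892, IDR 0.00163) and 52.1 at 3 days (rank 274, IDR 9.61e-05). Neither the 6-day list nor the HMGB2 list had a peak there, and the nearest ones were 1044 kb and 1086 kb away. The gene thus ranked high in both of the earlier SON lists and was missing from the 6-day list.

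NPM1 had 1 SON peak in each list, over the downstream of its 2 RefSeq starts, with 85.1 in untreated cells (rank 146), 81.9 at 3 days (rank 116) and 17.1 at 6 days (rank 329). Its 3-day IDR of 1e-05 was the smallest that list holds. The replicates stood at 81.9 and 251 at 3 days and at 17.1 and 35.3 at 6 days. HMGB2 had no peak at NPM1, and the nearest was 10.0 kb past the gene, at FGF18. NPM1 is the member with high SON ranks throughout and no HMGB2 peak.

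TPT1 had a SON peak over its start of 23.9 in untreated cells (rank 2461, IDR 0.00362) and 11.98 at 3 days (rank 3239, IDR 0.0147), and none at 6 days, when the nearest was 79.7 kb away. A second untreated SON peak of 20.1 lay inside the gene, 571 bases past the start. HMGB2 had a peak at both places, with 11.6 and a fold of 4.51 just upstream of the start and 9.46 and a fold of 5.41 inside. The peaks at the start also touch TPT1-AS1, a noncoding gene of the same region. EEF2 and TPT1 had the lowest SON percentiles of the set at 3 days among members with a peak, 72.7 and 70.6. Both were without a peak in the searched window at 6 days.

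At the starts themselves, a SON peak met the window from 250 bases before to 50 after in 7 of 8 members in untreated cells, in 7 at 3 days and in 5 at 6 days, and an HMGB2 peak did in 5. Of all genes with a promoter entry, 40.4%, 28.8%, 11.7% and 13.7% had such a peak. The 7 member summits lay upstream of the nearest start in untreated cells, by 56 to 219 bases with a median of 168. The 56 bases are those of EEF1B2, from its upstream start at 206159609. The sequence printed above for EEF1B2 is that of its downstream start, which lies farther from the summit. At 3 days the median was 164 bases upstream, at 6 days 154 and for HMGB2 177. Over all pairs of a peak and a start, the untreated median was 100 bases upstream, and 88.4% of summits were upstream. The members' untreated median was close to the outer quartile of all pairs, 169 bases upstream.

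Merging peaks that overlap between lists left 19 separate sites at the members, of which 7 met a promoter window. Untreated SON had a peak at 17 of the 19, and no site had a 3-day or 6-day SON peak without an untreated one. Of the 17, 13 were found at 3 days and 9 at 6 days, and 5 sites were in all 4 lists. These 5 are the promoter sites of EEF1A1, EEF1B2, EEF1G and EIF4A1 and the site at MPDU1. Both sites without SON were HMGB2 peaks, downstream of EEF1A1 and inside EEF2.

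SON and HMGB2 met at the members in most cases. Of the 17 untreated SON peaks, 11 overlapped an HMGB2 peak by at least 1 bp, against 16.5% of all untreated SON peaks. At 3 days 8 of 13 did (23.6% of all), and at 6 days 6 of 9 (25.4% of all). The summits of overlapping pairs were close, with a median distance of 20 bases for the untreated list, 22 for the 3-day list and 27.5 for the 6-day list. The longest untreated distance, 211 bases, was at the start of TPT1, and the shortest, 5 bases, at EEF1A1. The SON peaks at NPM1, EIF3E and EEF1D and over the start of EEF2 had no HMGB2 partner. Nor had those at the site inside EEF1G and at the nearer of the sites upstream of EEF2.

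The replicate values behind each SON list were compared at the member peaks. In untreated cells 13 of 17 peaks had identical values in replicate 1 and replicate 2, as did 56.0% of all peaks of that list. At 3 days none of 13 did (28.9% of that list), and replicate 2 was higher at 12 of 13, by a median ratio of 1.92 and up to 3.18 times, at EEF1D. In the whole 3-day list replicate 2 was higher at 56.3% of peaks. At 6 days replicate 2 was higher at 7 of 9 (47.0% of that list), and the exceptions were EEF1B2, with 68.1 and 28.1, and EEF1D. Identical values in 2 replicates give no measure of the spread between them. The source of the identical values was not tested.

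**Figure D4:**
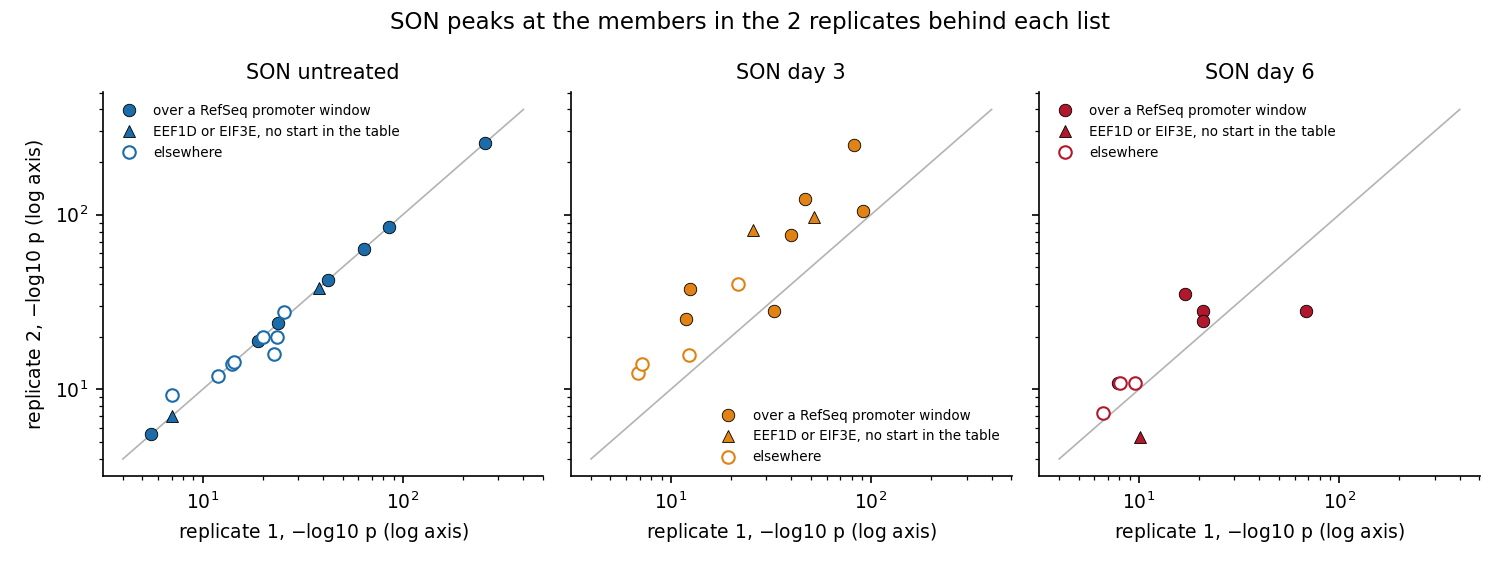
Strength (−log10 p, log axes) of each SON peak at the members in replicate 1 and replicate 2, with 1 panel per SON list, a line of equality and symbols for peaks over a promoter window, at EEF1D or EIF3E, or elsewhere. Untreated peaks lie on or near the line, 12 of 13 of the 3-day peaks lie above it, and EEF1B2 at 6 days lies farthest below it.

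Held to an IDR no higher than 0.05, 13 of 17 untreated member peaks stayed, 11 of 13 at 3 days and 4 of 9 at 6 days, against 59.7%, 41.4% and 15% of all peaks of these lists. Counted by gene, 7, 9 and 4 members then had a SON peak, against 45%, 24% and 5.02% of all genes. The 4 at 6 days are the promoter peaks of EEF1B2, EEF1G, EIF4A1 and NPM1. The other 6-day peaks at EEF1A1, EEF1D, EEF1G and the neighbours of EIF4A1 had IDRs between 0.176 and 0.63. A 6-day SON peak at those sites thus rests on lines that do not pass this limit. The replicates had identical values at 56.0% of untreated peaks, 28.9% at 3 days and 9.47% at 6 days. An IDR on identical values does not measure the spread between replicates, so shares under this limit are not comparable between lists.

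Members such as EEF1A1 and NPM1 have many processed copies in the genome, onto which reads of the transcribed part could be placed. The RefSeq table names 158 pseudogenes after members, among them 50 of NPM1, 49 of EEF1A1 and 14 of TPT1. No peak of any list met one of their spans. The share of all pseudogenes with a peak was not counted. The member summits over promoter windows lay upstream of the nearest start, so this count cannot show where the reads behind them were placed. How reads with several matching places were treated is not given in the sources used here.

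The rest of the translation machinery was read from a list of 63 further genes of initiation, elongation, release and their regulators, all of which matched the gene table. SON peaks were present at 60 of them in untreated cells (95.2%, 86.7 to 99.0%), at 50 at 3 days (79.4%, 67.3 to 88.5%) and at 34 at 6 days (54.0%, 40.9 to 66.6%), and HMGB2 peaks at 29 (46.0%, 33.4 to 59.1%). The members' shares lay inside these intervals in untreated cells and at 6 days, and just above them at 3 days (90%) and for HMGB2 (60%). Median percentiles of the strongest peak were 86.1, 81.8, 72.0 and 59.1.

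By complex, and beside shares of 57.1%, 41%, 21.5% and 23.3% of all genes in the 4 lists, the untreated SON list met all 12 listed subunits of eIF3, all 12 genes of the eIF4 group, all 8 of eIF2 and its exchange factor eIF2B, and all 8 of eIF1, eIF5 and eIF6. Of the 13 listed genes of elongation and release, that list met 11. The 3-day SON list met 9 of these 13, the 6-day list 7 and the HMGB2 list 6. At 6 days 4 of the 12 eIF3 genes were left with a SON peak and 10 of the 12 eIF4 genes. HMGB2 met 4 of the eIF3 genes and 8 of the eIF4 genes. EIF3E, a member, had a SON peak in untreated cells and at 3 days and none at 6 days, a pattern shared by 7 of the 12 other eIF3 genes, by 28.6% of the 63 other translation factor genes and by 19.8% of all genes.

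A peak in all 4 lists was found at 18 of the 63 genes (28.6%, against 10.6% of all genes). In initiation these were EIF1 and EIF5, which govern the choice of the start codon, EIF2S2, EIF2A, EIF2D, EIF2B4, EIF3L, the scaffolds EIF4G1, EIF4G2 and EIF4G3, the helicase cofactors EIF4B and EIF4H, and EIF4A3, the paralogue of the eIF4A helicases that acts in the exon junction complex. In elongation and release they were EIF5A, EEF2KMT, the ribosome rescue factors HBS1L and PELO, and the release factor ETF1. EEF1A2, the form of eEF1A used in neurons and muscle, and GSPT2, an intronless copy of the release factor gene GSPT1, had no peak in any list.

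The strongest SON peaks among these genes were at EIF4G3, at 343 in the untreated list, 192.1 in the 3-day list and 74.96 in the 6-day list on the −log10 p scale, and at EIF5A, with 103.1, 191.8 and 46.6. Next came EIF2B4 with 71.7 in untreated cells, EIF2S2 with 71.9 at 3 days and EIF1 with 16.2 at 6 days. Of the members, EEF1B2 lay between EIF4G3 and EIF5A in untreated cells. The strongest HMGB2 peaks were at EIF2S3 with 48.0, ETF1 with 30.8 and EIF4G3 with 20.0.

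**Figure D5:**
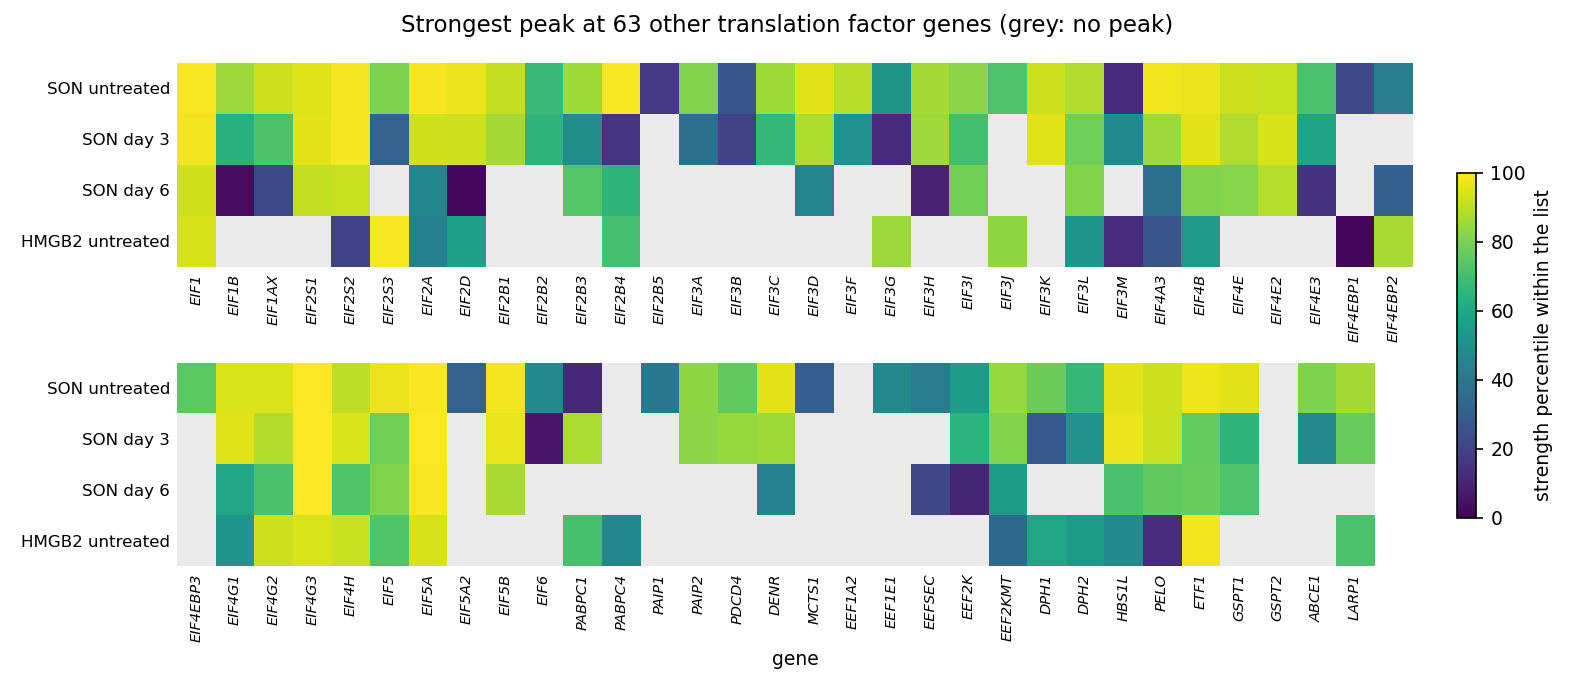
Strength percentile of the strongest peak at each of 63 other translation factor genes (columns) in the 4 lists (rows), coloured from 0 to 100, with grey for no peak. From the top row to the bottom, 60, 50, 34 and 29 columns hold a peak, and EIF4G3 and EIF5A are near 100 in each SON row.

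The protein-coding genes whose profile over the 4 lists was most like the median of the 10 members were SESN1, ASF1B, GZF1, MARCHF9 and DVL2. Likeness was the mean absolute difference in percentile over the 4 lists, with 0 for a gene without a peak, and it was 2.33 for SESN1 and 4.6 for DVL2. The member medians compared, with members without a peak counted as 0, were 93.2, 94.6, 21.6 and 33.3. These profiles are 4 numbers each. At 6 days no member stood near the median of 21.6, and the closest were EEF1D at 2.77 and EEF1A1 at 40.3. Likeness to the median is thus not likeness to any single member.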

How the data were processed

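Peak lists of 4 samples were analysed, 1 per group, and 2 samples were not analysed here. Per the submitters' processing notes, bcl2fastq 2.17, Bowtie2, MACS2 and deepTools were used and the build was hg38. Their settings, the control and the treatment of multiply matching reads are not given in the sources used here. The authors deposited −log10 p per peak in every list, for SON also for each of 2 replicates with the −log10 of the global IDR, in the layout of the IDR tool, and for HMGB2 the fold enrichment, a ratio over the caller's background, and −log10 q. HMGB2 peak names state a q cutoff of 0.03.

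Peaks on chromosomes 1 to 22 and X were ranked within each list. A gene was counted with a peak when at least 1 bp lay in its RefSeq span (GRCh38.p14) plus 5 kb each side. The percentile is the share of the list's peaks that are no stronger. Starts come from the RefSeq promoter table. Coordinates are 1-based. No test was run, since each group has 1 list. The members and gene lists were chosen with earlier results of these data known. The TATA window was chosen after the sequences were read. Named were all members, the listed factors with a peak in all 4 lists or in none, the 3 strongest per list, the 5 most alike genes, and genes in the members' windows. Counting was tested on simulated peaks, and 200 of 200 planted genes were recovered. Tools were pandas 2.3.3 and numpy 2.4.6 under Python 3.11.15, with scipy 1.17.1 for intervals and matplotlib 3.10.9 for figures.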

Additional observations from a re-analysis of the deposited data

How the results depend on the processing

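Alternatives changed the window, the peaks kept, the measure of strength and the overlap that counts as shared. The promoter window and its alternatives were chosen after seeing the data. Of 81 alternative values, 70 stayed within 1.5 times the count or within the counting interval of the percentile. With no window around the span, HMGB2 peaks met 3 members in place of 6, since peaks ending just before the start then fall outside. Other translation factor genes with a SON peak numbered 27 at 3 days under an IDR limit of 0.01, and at 6 days 22 in the stronger 50% of the list, 7 under a limit of 0.05 and 4 under 0.01. With a fold of at least 5, HMGB2 peaks met 18 of these genes. The median percentile of the strongest member peak was 95.6 in untreated SON and 94.5 at 3 days by the second replicate, and 92.5 at 6 days by the first. For HMGB2 it was 48.4 with a window of 1 kb, which drops sites at neighbouring genes, and 72.1 by fold. Leaving out a replicate was impossible, with 1 list per group. Unknown depth limits every absence of a peak: a gene without one may lie under the caller's threshold.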

Other observations

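EEF1A1 and EEF1D were among the genes whose SON peak was weak in the untreated list and strong at 3 days. Of 4051 protein-coding genes with a peak in all 3 SON lists, 9 had a strongest peak under percentile 25 in untreated cells and over percentile 90 at 3 days. These bounds were set after the 2 genes were seen. The others were TIGD5, which shares the EEF1D peak, DESI1, PPP2R1A, USP21, UTP11, WDR13 and YWHAG. The count depends on the bounds and on the 6-day peak asked for. PABPC1, of the other translation factor genes, had percentile 11.3 in untreated cells and 87.3 at 3 days, and no 6-day peak. In untreated cells the peaks at EEF1A1 and EEF1D were wide for their strength. The EEF1A1 peak spanned 950 bp, and 8 of 1301 peaks that were no stronger (0.615%) were as wide. The EEF1D peak spanned 813 bp, and 102 of 4905 (2.08%) were as wide. Width was compared at these 2 genes only, after the data were seen. Each count includes the gene's own peak.

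The promoter letters found at many members were set against peaks over all protein-coding genes. Genes with TATA at 40 to 21 bases upstream had an untreated SON peak over the promoter window in 23.4% of cases (21.2 to 25.6%, 1460 genes), and those without in 42.1% (41.3 to 42.9%). With a pyrimidine tract at the start the share was 41.6% (40.1 to 43.1%), and without it 39.9% (39.0 to 40.8%). For HMGB2 it was 15.5% (14.4 to 16.6%) with the tract and 13.0% (12.4 to 13.6%) without. Genes with both at 1 start stood at 29.3% (24.4 to 34.7%, 317 genes), and 5 of the 6 members with both had such a peak. For HMGB2 the genes with both stood at 17.7% (13.6 to 22.3%), and 3 of these 6 members had a peak.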
